A study of Mus musculus with 18 samples.

Results

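A group of genes best known from fat tissue was followed in the liver: Cfd (adipsin), Car3, Fabp4, Adipoq, Plin1, Retn and Lep, which are 7 of the 54532 genes in the expression table. The genes were chosen by name, with levels measured in these same mice already known, so their levels and fold changes are given below as a description and carry no test. The livers came from 18 male C57BL/6J mice in groups of 6. The normal control (NC) mice ate normal chow, the HFD control (HFD) mice ate a high-fat diet and received saline, and the SZ-A mice ate the same high-fat diet and received SZ-A, the alkaloids of Ramulus Mori (mulberry twig). Mice entered the study at 6 weeks of age, the diet ran for 14 weeks before treatment, and treatment lasted 6 weeks by the study's methods and 8 weeks by the deposited design. All mice were fasted overnight before the liver was taken, and neither the dose nor the route of SZ-A is named for the sequenced mice. The diet label of NC6 reads high-fat diet against its title. NC6 was kept in NC, and values without it are given where they matter.

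White adipocytes store triglyceride in a single large droplet and secrete hormones and proteases into the blood. Cfd, complement factor D, is a serine protease that cuts factor B bound to C3b and so starts the alternative complement pathway. Adipoq encodes adiponectin, Lep leptin and Retn resistin, and all 3 of these hormones are made in mice mainly by fat cells. Plin1 coats the adipocyte lipid droplet and restrains its lipolysis, and Fabp4 carries fatty acids in the cytoplasm of adipocytes, macrophages and capillary endothelium. Car3 is a carbonic anhydrase abundant in adipocytes, in skeletal muscle and in rodent liver. Several of these genes are textbook targets of the nuclear receptor PPARg.

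The label "adipocyte-type" describes where the genes are known from, and not the tissue sampled. The liver was dominated by hepatocyte transcripts, with Alb, the albumin gene, at 16120 to 37150 FPKM (fragments per kilobase of gene, scaled to the library size). Adipoq, Plin1, Retn and Lep, the members that define an adipocyte, had mean levels of 0 to 0.202 FPKM in the 3 groups. Fragments on genes numbered 17163191 to 20493907 per mouse. FPKM is divided by gene length, so levels of different genes can be compared on it. The length used for Fabp4, 4489 bases, is the whole span of the gene, which makes its FPKM low for its number of fragments. In bulk liver, fewer cells of a type and less RNA per cell cannot be told apart.

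The members lie on 6 chromosomes (GRCm38), and none overlaps another gene of the table. Cfd is at chr10:79890853-79892655 (plus strand), Car3 at chr3:14863512-14872523 (plus), Fabp4 at chr3:10204088-10208576 (minus), Adipoq at chr16:23146536-23158028 (plus), Plin1 at chr7:79720218-79732903 (minus), Retn at chr8:3655770-3660110 (plus) and Lep at chr6:29060220-29073877 (plus). The promoters of 3 members are shown, because Cfd was the member with the widest range between groups, and Adipoq and Retn varied together between mice while staying close to 0. Each is the 250 bases before the start of the gene in RefSeq (GRCm38.p6), at chr10:79890603-79890852, chr16:23146286-23146535 and chr8:3655520-3655769, on the plus strand, with matches to 4 short motifs in capitals.
Cfd: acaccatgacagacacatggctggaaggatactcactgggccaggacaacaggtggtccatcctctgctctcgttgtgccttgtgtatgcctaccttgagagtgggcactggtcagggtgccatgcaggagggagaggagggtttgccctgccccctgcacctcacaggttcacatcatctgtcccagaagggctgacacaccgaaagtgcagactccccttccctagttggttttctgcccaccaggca
Adipoq: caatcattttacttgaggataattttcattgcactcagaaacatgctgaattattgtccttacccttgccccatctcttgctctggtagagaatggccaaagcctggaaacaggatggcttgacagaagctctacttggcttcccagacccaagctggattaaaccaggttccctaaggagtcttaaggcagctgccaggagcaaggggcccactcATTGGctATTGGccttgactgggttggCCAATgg
Retn: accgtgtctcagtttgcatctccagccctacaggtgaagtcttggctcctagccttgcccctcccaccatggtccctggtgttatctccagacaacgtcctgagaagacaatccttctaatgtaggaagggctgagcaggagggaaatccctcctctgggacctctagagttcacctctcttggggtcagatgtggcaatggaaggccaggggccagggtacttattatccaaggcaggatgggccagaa
The motifs searched on both strands were the TATA box TATAAA, the CCAAT box CCAAT, the C/EBP-type motif TTGCNNAA and the nuclear receptor half-site AGGTCA. No match overlaps another in the windows shown. Adipoq held CCAAT 3 times, at 34, 27 and 7 bases before the start, the first pair on the minus strand. Cfd and Retn held no match. Among all 32851 promoters of the same length, 33.8% held CCAAT, 12.4% TATAAA, 9.56% TTGCNNAA and 14.0% AGGTCA. The promoters of Plin1 and Lep held TTGCNNAA 2 times and 1 time, and for Car3 and Fabp4 no sequence is shown. These letter matches are a description of the windows.

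Cfd was low in NC livers, high in HFD livers and low again in most SZ-A livers. It was at 3.89, 2.43, 3.01, 0.642, 0 and 7.47 FPKM in NC1 to NC6. In the HFD mice it was at 60.9, 135, 27.8, 19.4, 48.5 and 22.8 FPKM. In the SZ-A mice it was at 3.29, 30.9, 1.306, 1.019, 1.303 and 7.472 FPKM. All 6 HFD mice were above all 6 NC mice, and 5 of 6 SZ-A mice were below all HFD mice, the exception being SZ-A2. No share of all genes with groups apart is given here or for the other members, so such counts only describe the values. The group means were 2.91 ± 2.67, 52.4 ± 43.6 and 7.55 ± 11.7 FPKM (SD, n = 6 each), which placed Cfd 6927th, 845th and 3996th among the 54532 genes. The SZ-A and NC mice overlapped almost throughout, with medians of 2.30 and 2.72 FPKM.

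On the log2(FPKM + 0.1) scale the fitted difference of Cfd was 4.68 (SE 0.88, 95% interval 2.78 to 6.58) for HFD against NC, the 2nd largest in size of the 10216 genes tested. It was -3.57 (SE 0.77, 95% interval -5.24 to -1.91) for SZ-A against HFD, the 3rd largest. For SZ-A against NC it was 1.11 (SE 1.04, 95% interval -1.14 to 3.36). Intervals and ranks of the members describe genes chosen with these values known, and are not read as tests. NC5 had no Cfd fragment at all, a count that allows up to 3 fragments or 0.201 FPKM, and without NC5 the first difference was 3.88 and the last 0.30. Without NC6, the first was 5.13. Without SZ-A2, the difference to HFD was -4.21 and that to NC 0.47.

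Car3 was far more abundant than Cfd and was high in most mice on the high-fat diet, with or without SZ-A. It was at 53.6, 274, 217, 62.9, 26.0 and 403 FPKM in NC1 to NC6. In the HFD mice it was at 600, 1184, 713, 607, 975.2 and 516 FPKM. In the SZ-A mice it was at 824, 1028, 543, 635, 47.8 and 530 FPKM. All HFD mice were above all NC mice, while 5 of 6 SZ-A mice lay within the HFD range and above all NC mice. The remaining one, SZ-A5, was at 47.8 FPKM, below 5 of 6 NC mice. The group means were 173 ± 150, 766 ± 259 and 601 ± 331 FPKM (SD, n = 6 each), and by mean level Car3 was the 66th gene of the HFD liver.

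The fitted log2 difference of Car3 was 2.69 (SE 0.58) for HFD against NC, -0.73 (SE 0.61, 95% interval -2.04 to 0.58) for SZ-A against HFD and 1.96 (SE 0.80) for SZ-A against NC. The SZ-A values turned on SZ-A5, without which the differences were -0.09 (SE 0.24) to HFD and 2.603 (SE 0.62) to NC. Without NC6, the difference of HFD to NC was 3.06.

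Fabp4 differed in the same direction on a much smaller scale. It was at 1.61, 1.07, 1.503, 1.66, 1.44 and 1.13 FPKM in NC1 to NC6. In the HFD mice it was at 4.99, 2.42, 1.73, 3.89, 2.44 and 3.02 FPKM, and in the SZ-A mice at 1.13, 2.51, 2.07, 1.60, 2.84 and 1.63 FPKM. The lowest HFD mouse was only just above the highest NC mouse, and 3 of 6 SZ-A mice were below every HFD mouse. The means were 1.40 ± 0.25, 3.08 ± 1.18 and 1.97 ± 0.64 FPKM (SD, n = 6 each). The fitted log2 differences were 1.02 (SE 0.22) for HFD against NC, -0.60 (SE 0.26) for SZ-A against HFD and 0.41 (SE 0.20, 95% interval -0.02 to 0.85) for SZ-A against NC.

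**Figure D1:**
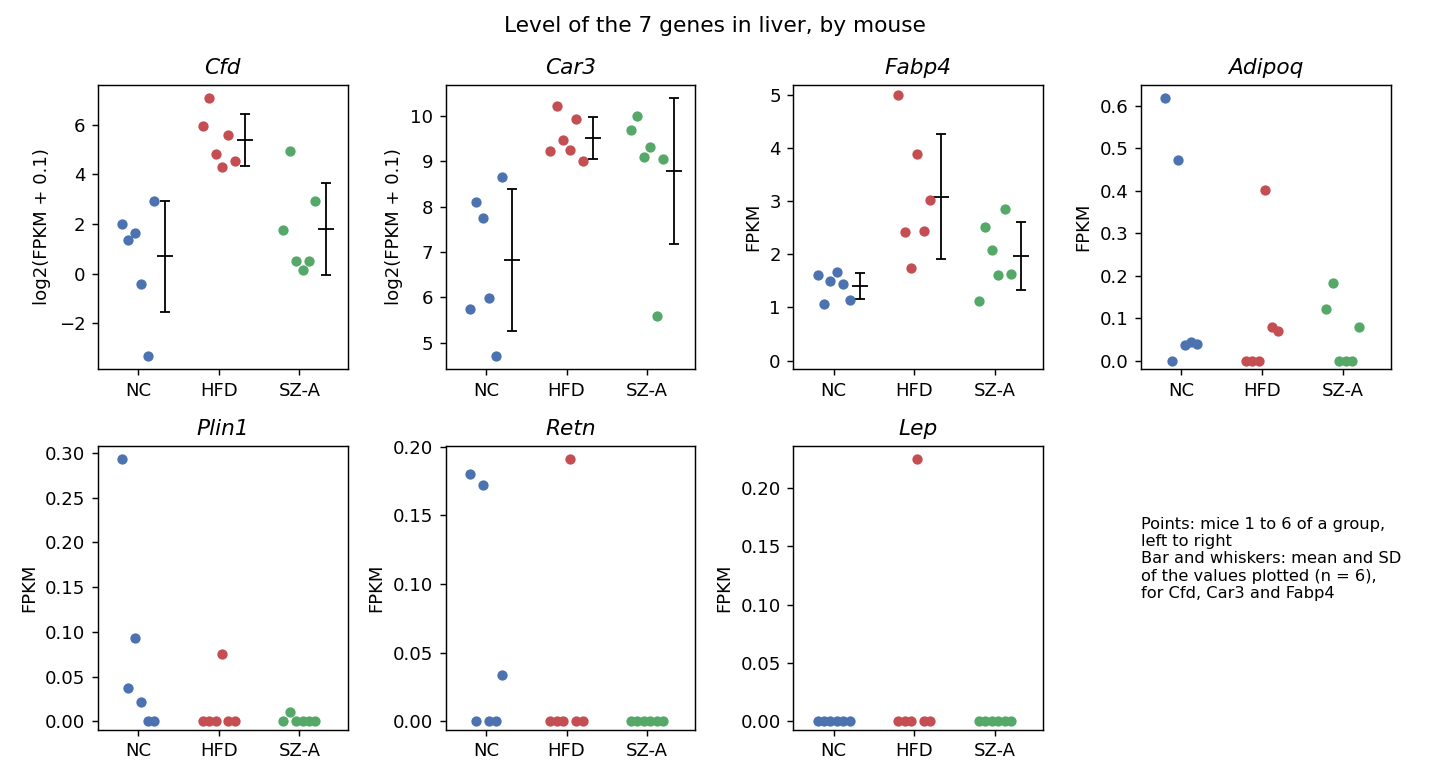
Level of each member in each mouse, by group. Cfd and Car3 are on the log2(FPKM + 0.1) scale and the others on a linear FPKM scale. Points are the 6 mice of a group in order of their number, and the bar and whiskers beside Cfd, Car3 and Fabp4 are the mean and SD. The 6 HFD mice lie above the 6 NC mice for Cfd, Car3 and Fabp4, and Adipoq, Plin1, Retn and Lep are at or near 0 in most mice. The members were chosen with these values known, and no share of all genes separated in this way is given.

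The hormone and droplet genes of the adipocyte itself showed no such order. Adipoq was at 0.618, 0, 0.473, 0.0358, 0.0447 and 0.0384 FPKM in NC1 to NC6, where 1 fragment is worth about 0.04 FPKM. In the HFD mice it was at 0, 0, 0, 0.401, 0.0782 and 0.0688 FPKM, and in the SZ-A mice at 0.122, 0.182, 0, 0, 0 and 0.0798 FPKM. These levels came from 30, 15 and 10 fragments in all of NC, HFD and SZ-A, and 4 of 18 mice had more than 3 fragments. Plin1 had 24 fragments in NC1 (0.294 FPKM), 8 in NC3 (0.0937 FPKM), 7 in HFD4 (0.0757 FPKM), 3 in NC2, 2 in NC4 and 1 in SZ-A2, and none in the other 12 mice. Retn had 5 fragments in NC1 (0.180 FPKM), 5 in NC3 (0.172 FPKM), 6 in HFD4 (0.191 FPKM) and 1 in NC6, and none in the other 14. Lep was found only in HFD4, with 15 fragments (0.225 FPKM). A count of 0 allows up to 3 fragments, which is up to 0.134 FPKM for Adipoq and up to 0.0552 FPKM for Lep, and covers counting error only. No fold change is given for these 4 genes, whose groups overlapped and whose means were all under the filter of 1 FPKM.

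NC1, NC3 and HFD4 were the mice in which the adipocyte-defining genes were found together, with summed levels of Adipoq, Plin1, Retn and Lep of 1.09, 0.739 and 0.892 FPKM. The other 15 mice were at 0 to 0.193 FPKM. The relation of Cfd to that sum is described by group. HFD1, HFD2 and HFD3 had none of the 4 genes and Cfd at 60.9, 135 and 27.8 FPKM, and HFD2 was the highest of all mice. HFD4, the HFD mouse with the most of these transcripts, had the lowest Cfd of the HFD group, 19.4 FPKM. NC1 and NC3, 2 of the 3 mice with the highest sums, had 3.89 and 3.01 FPKM of Cfd. The highest NC mouse for Cfd, NC6, had a sum of 0.0719 FPKM. In the SZ-A group the mice with some of these transcripts were also those with more Cfd, but on few fragments. SZ-A2, SZ-A1 and SZ-A6 had 5, 3 and 2 fragments of Adipoq. A count of 0 allows up to 3, so only SZ-A2 was above what the mice with none could hold. SZ-A2 was highest for Cfd (30.9 FPKM) and for the sum (0.193 FPKM), SZ-A1 and SZ-A6 followed with Cfd at 3.29 and 7.472 FPKM and sums of 0.122 and 0.0798 FPKM, and the 3 mice with none of the 4 genes had Cfd at 1.019 to 1.306 FPKM.

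**Figure D2:**
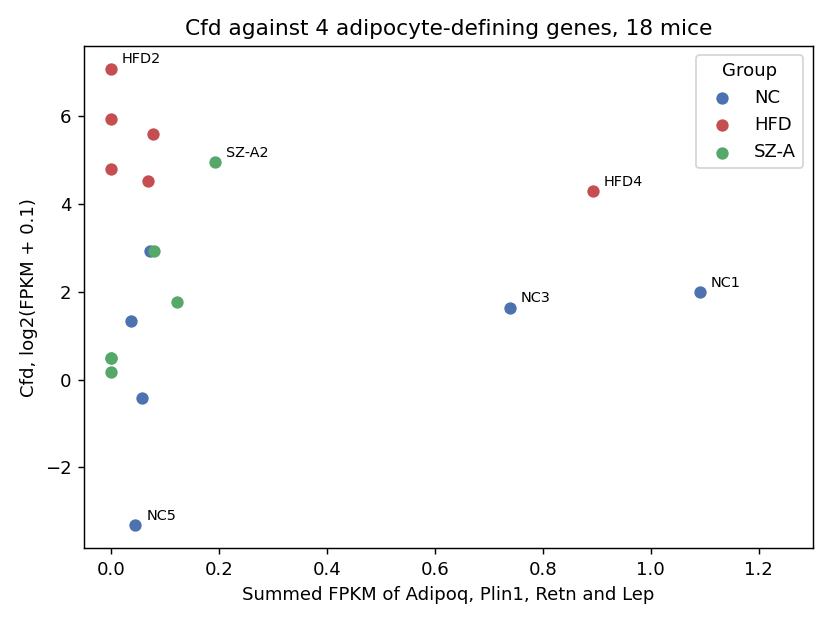
Cfd on the log2(FPKM + 0.1) scale against the summed FPKM of Adipoq, Plin1, Retn and Lep, 1 point per mouse, coloured by group. HFD1, HFD2 and HFD3 stand at 0 on the horizontal axis with Cfd at 27.8 FPKM or more, NC1, NC3 and HFD4 stand at the right with Cfd at 3.01 to 19.4 FPKM, and SZ-A2 is the highest SZ-A mouse on both axes.

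Other cell types were followed by fixed marker lists. The summed level of 10 white adipocyte markers, 4 of them members, was 0.848 to 2.77 FPKM in NC mice, 0.722 to 2.50 FPKM in HFD mice and 0.871 to 1.97 FPKM in SZ-A mice, and the groups overlapped. In most mice the larger part of that sum was 1 gene, Adrb3, so the overlap mainly describes that gene. Ucp1, which defines brown adipocytes, was at 0 in all 18 mice. The 7 skeletal muscle markers summed to 37.5 FPKM in HFD3 and 9.80 in NC2 against at most 2.32 in the other 16 mice, and Car3 in HFD3, 713 FPKM, was exceeded by 2 other HFD mice. In the NC group the mice with the highest muscle sums, NC2 and NC6 (9.80 and 2.32 FPKM), were also the highest for Car3, at 274 and 403 FPKM, and the part of muscle RNA in the Car3 levels was not tested. The summed level of 12 macrophage markers was 123 to 227 FPKM in NC mice, 246 to 346 FPKM in HFD mice and 189 to 282 FPKM in SZ-A mice, and that of 11 endothelial markers 56.6 to 68.8, 60.5 to 76.6 and 63.0 to 68.8 FPKM. Fabp4 and the macrophage list were thus both highest in the HFD group, and the part of macrophages in the Fabp4 difference was not tested. Mesothelial markers reached at most 2.69 FPKM. The 8 fibroblast and stellate cell markers summed to 40.3 to 58.9 FPKM in NC mice, 40.8 to 86.3 FPKM in HFD mice and 39.4 to 54.6 FPKM in SZ-A mice, and 6 exocrine pancreas markers to 3.27 to 5.20, 4.53 to 9.32 and 9.33 to 10.7 FPKM. The pancreas sum was nearly all Cela1, with NC, HFD and SZ-A means of 4.49, 6.26 and 9.76 FPKM. Of the other pancreas markers, Cel was at 0 in all 18 mice, and Cpa1, Pnliprp1 and Ctrb1 were at 0 in most.

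Genes of the whole table were tested with limma, and a gene was called when its adjusted p was under 0.05 and its fold change over 1.2. For HFD against NC 20.2% of tested genes were called, for SZ-A against HFD 0.147% and for SZ-A against NC 9.6%. These shares depended on single mice. The 15 genes called for SZ-A against HFD became 2 to 6 without any one of HFD mice 1, 2 and 4 or SZ-A mice 1, 3, 4 and 6, and 31 to 49 without HFD5, SZ-A2 or SZ-A5, and they became 216 with FPKM rescaled to a common sum and 233 with sample weights. The 981 for SZ-A against NC became 601 without SZ-A3 and 629 without SZ-A6. The gene lists below were fixed with earlier results of these data known, so their counts are a description beside these shares. Of the 7 members, 3 (Cfd, Car3 and Fabp4) passed the filter on low values. All 3 passed the threshold for HFD against NC and none did for the other comparisons. Since the members were chosen with these values known, nothing is read from those counts or from the separation of HFD from NC mice.

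Whether other fat cell genes were measurable in these livers was examined with a list of 21 of them, and 9 of the 21 reached the filter. Adig, a gene of adipogenesis, was at 0 to 0.593 FPKM, Trarg1, a regulator of glucose transporter traffic, at 0.085 to 0.381, Slc2a4, the insulin-responsive glucose transporter, at 0 to 0.213, and Adrb3, the beta-3 adrenergic receptor, at 0.336 to 1.71 FPKM, and the groups overlapped for each. For HFD against NC 3 of the 9 passed, against 20.2% of all tested genes. Their median log2 difference was 0.15 against -0.03 over all tested genes. Thrsp, a lipogenic gene that liver also expresses, rose from 3.78 ± 1.80 to 38.5 ± 37.9 FPKM (log2 2.94, SE 0.48, adjusted p = 0.00115). Lpl, lipoprotein lipase, rose from 1.37 ± 0.46 to 3.57 ± 1.23 FPKM (log2 1.31, SE 0.23, adjusted p = 0.0017). Pnpla2, the triglyceride lipase of adipocytes and liver, fell from 61.2 ± 24.1 to 32.4 ± 5.07 FPKM (adjusted p = 0.00801), and Lipe, hormone-sensitive lipase, was at 2.51 ± 0.35 and 2.80 ± 0.36 FPKM (adjusted p = 0.365).

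For SZ-A against HFD none of the 9 passed by limma (1 at an unadjusted p under 0.05), and their median log2 difference was -0.02 against 0.03 over all genes. That gene was Lpl, at 1.61 ± 0.54 FPKM in SZ-A mice (log2 -1.10, SE 0.23, adjusted p = 0.0865). Lpl passed with FPKM rescaled to a common sum, with voom on whole fragments, with sample weights and without SZ-A2. Thrsp stayed at 42.5 ± 28.7 FPKM in SZ-A mice (adjusted p = 0.914 against HFD). For SZ-A against NC, Thrsp (log2 3.15, adjusted p = 0.00359) and Pnpla2 (log2 -0.87, adjusted p = 0.00986) were the 2 of 9 that passed, against 9.6% of all tested genes.

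The list of PPARg targets and lipid droplet genes of the liver was fixed with earlier results known, so its counts are a description. For HFD against NC 10 of 15 tested genes were called, 8 higher and 2 lower, against 20.2% of all tested genes. Their median log2 difference was 0.52, against -0.03 over all tested genes. Cidea, which fuses lipid droplets, rose from 0.738 ± 0.565 to 19.1 ± 19.0 FPKM (log2 3.94, SE 0.80, adjusted p = 0.00426), a call lost with voom (adjusted p = 0.057). Mogat1, a monoacylglycerol acyltransferase, rose from 1.09 ± 0.22 to 5.58 ± 2.06 FPKM (log2 2.21, SE 0.21, adjusted p = 4.1e-05), and Cd36, a fatty acid transporter, from 24.6 ± 9.95 to 96.5 ± 16.4 FPKM (log2 2.06, SE 0.24, adjusted p = 0.000163). Pparg itself rose from 3.41 ± 0.91 to 5.94 ± 0.998 FPKM (log2 0.80, SE 0.17, adjusted p = 0.00468). The genes called lower were Plin5 and Angptl4, and Cidec, Plin2 and Pdk4 were lower without a call, so the list did not move as 1 block. Cidec, a droplet fusion gene of adipocytes and fatty liver, was at 54.4 ± 31.8 in NC and 30.6 ± 12.4 FPKM in HFD mice (adjusted p = 0.128).

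For SZ-A against HFD 2 of the 15 were called, both lower, against 0.147% of all tested genes, with a median log2 difference of -0.44. Mogat1 fell to 1.60 ± 0.66 FPKM (log2 -1.77, SE 0.28, adjusted p = 0.0341) and Cd36 to 43.4 ± 17.7 FPKM (log2 -1.21, SE 0.20, adjusted p = 0.0382). Both calls were lost when any of 7 mice was left out (the HFD mice 1, 2 and 4 and the SZ-A mice 1, 3, 4 and 6), with an adjusted p of 0.0632 to 0.116 for Cd36, which also lost it without HFD6, and of 0.0732 to 0.108 for Mogat1. The count of 2 was then 0, or 1 without HFD6. Cidea was at 2.70 ± 5.54 FPKM in the SZ-A mice, with SZ-A2 at 14.0 and the other 5 mice at 0 to 1.03 FPKM (adjusted p = 0.15). Pparg was at 5.33 ± 1.66 FPKM (adjusted p = 0.695). For SZ-A against NC 5 of 15 were called, of which 4 were lower, against 9.6% of all tested genes, with a median of 0.19. Among them were Cidec at 18.7 ± 14.5 FPKM (log2 -1.76, adjusted p = 0.0438), Pdk4 (log2 -1.58, adjusted p = 0.0177) and Plin5 (log2 -0.98, adjusted p = 0.0381). Leaving out single mice ended the call of Cidec for 9 of them (all but NC6, SZ-A2 and SZ-A5, adjusted p up to 0.0884) and of Plin5 for 7 (NC2 to NC4, SZ-A1 to SZ-A3 and SZ-A6, up to 0.074). The count of 5 was 1 without NC4 or SZ-A6, 2 without NC1, NC2, NC3, SZ-A1, SZ-A2 or SZ-A3, and 3 without NC6.

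**Figure D3:**
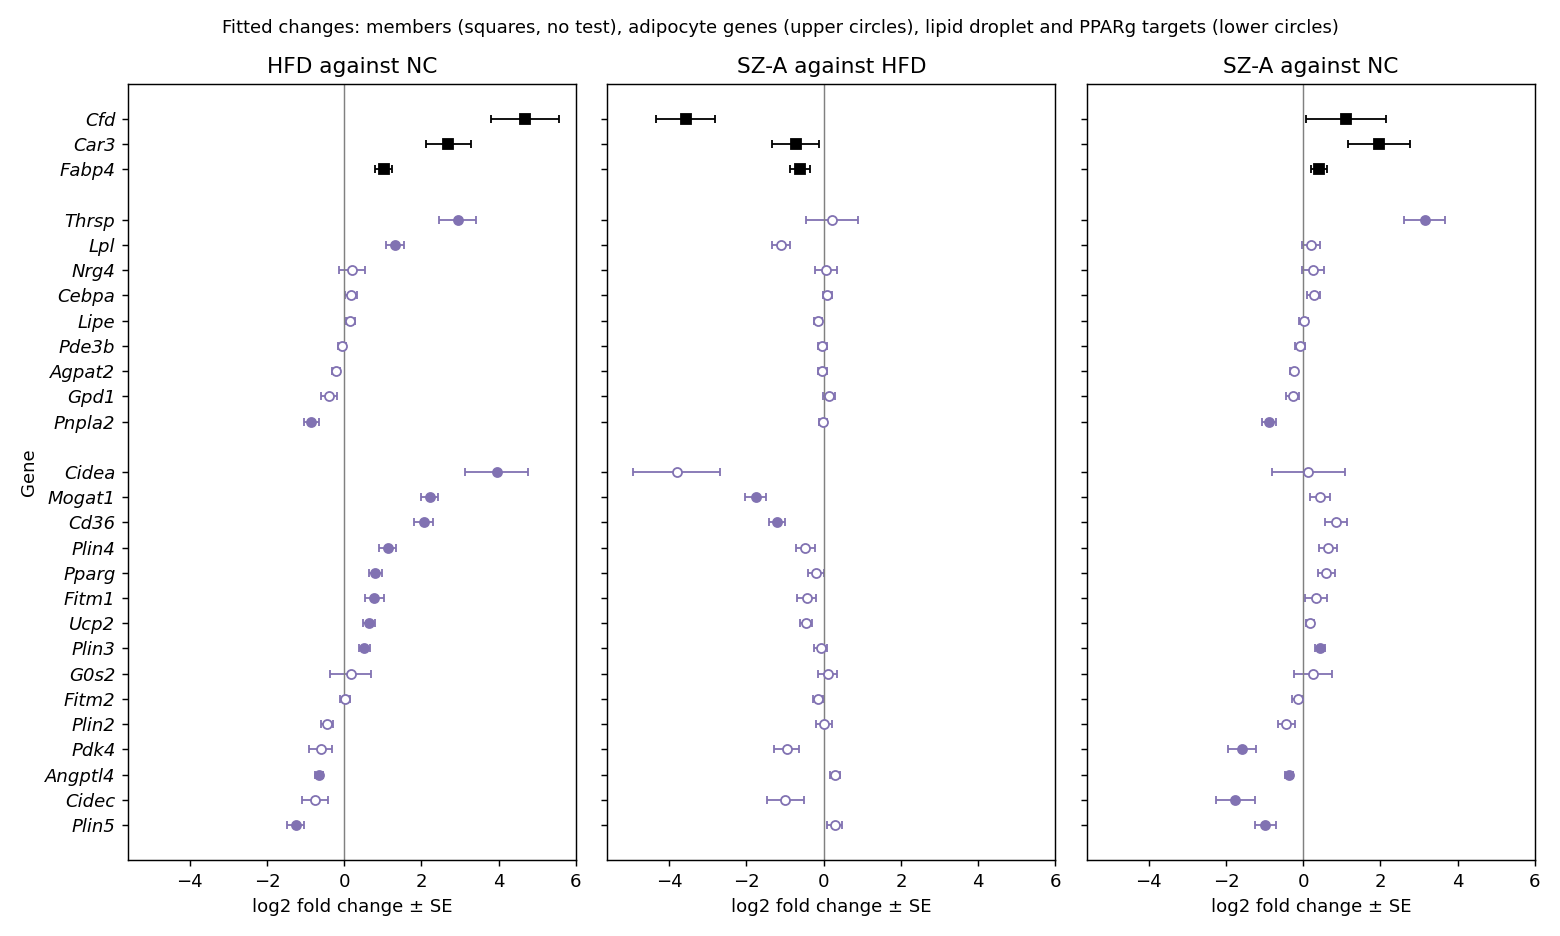
Fitted log2 fold change ± SE of the 3 members that passed the filter (squares, no test) and of the tested genes of the adipocyte list (upper circles) and of the lipid droplet and PPARg target list (lower circles), in the 3 comparisons. Filled circles are genes that passed the threshold. Cfd is at 4.68 and -3.57 in the first 2 panels, and Cidea at 3.94 and -3.81 is the list gene closest to it in size.

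The liver expressed the receptors and the partners of the secreted members. C3, the source of the C3b to which factor B binds, was at 1326 ± 230, 1416 ± 319 and 1488 ± 281 FPKM in the NC, HFD and SZ-A groups. It passed in no comparison by limma (lowest adjusted p = 0.589 over the 3). Cfb, factor B, rose in HFD against NC from 1.34 ± 0.38 to 2.02 ± 0.25 FPKM (log2 0.61, SE 0.20, adjusted p = 0.0409), and was at 1.81 ± 0.46 FPKM in SZ-A mice (adjusted p = 0.638 against HFD). The call of Cfb was lost without NC2, NC3 or any HFD mouse but HFD1 (adjusted p 0.0558 to 0.0784). C3ar1, the C3a receptor, rose from 0.704 ± 0.135 to 1.59 ± 0.31 FPKM (log2 1.07, adjusted p = 0.000686) and was at 1.06 ± 0.11 FPKM in SZ-A mice (adjusted p = 0.1 against HFD). C5ar1, the C5a receptor, rose from 0.654 ± 0.301 to 1.63 ± 0.28 FPKM (adjusted p = 0.0024).

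Among the receptors for the hormones, Lepr, the leptin receptor, fell most. Its lowest, median and highest NC levels were 1.84, 7.34 and 19.4 FPKM, and every HFD mouse was below them, at 0.356 to 1.03 FPKM (log2 -3.06, SE 0.48, adjusted p = 0.000855). The SZ-A mice were at 0.486 to 2.04 FPKM, lower than NC (log2 -2.70, adjusted p = 0.00546) and not called against HFD (log2 0.37, adjusted p = 0.638). Adipor1 and Adipor2, the adiponectin receptors, were at 21.6 to 24.9 and at 76.9 to 92.6 FPKM by group mean, and neither passed in any of the 3 comparisons (lowest adjusted p = 0.0583). Of 13 tested receptors and partners 6 passed for HFD against NC, 5 of them higher, none passed for SZ-A against HFD (3 at an unadjusted p under 0.05), and 4 passed for SZ-A against NC. Over all tested genes the shares called were 20.2%, 0.147% and 9.6%. The median log2 differences of the list were 0.28, -0.08 and 0.20, against -0.03, 0.03 and -0.006 over all tested genes. The count of 6 was 3 without HFD4, and the count of 4 was 1 without SZ-A3 or SZ-A6 and 2 without NC3.

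Of the gene families to which the members belong, 10 of 23 paralogs were tested. For HFD against NC 3 passed, all of them carbonic anhydrases and all higher, against 20.2% of all tested genes. Car5a, a mitochondrial form, rose from 20.9 ± 4.50 to 41.2 ± 5.64 FPKM (log2 0.99, adjusted p = 0.00048), Car1, a cytoplasmic form, from 1.93 ± 0.97 to 3.95 ± 1.07 FPKM (log2 1.12, adjusted p = 0.0241), and Car14, a membrane form, from 8.75 ± 1.61 to 13.0 ± 3.50 FPKM (adjusted p = 0.0468). The call of Car14 was lost without any NC mouse but NC1 or any HFD mouse but HFD6 (adjusted p up to 0.0939), and that of Car1 without NC4 or HFD2 (0.0539 and 0.0508). For SZ-A against HFD none of the 10 passed (2 at an unadjusted p under 0.05), against 0.147% of all tested genes. For SZ-A against NC only Car5a did (adjusted p = 0.0113), against 9.6%. The count of 3 was 1 without NC4 or HFD2, and the count of 1 for SZ-A against NC was 5 without SZ-A5. Fabp5, another fatty acid binding protein, was at 1.70 ± 1.97, 1.46 ± 0.68 and 2.86 ± 3.07 FPKM and passed in no comparison (adjusted p 0.697, 0.647 and 0.459). The mouse that was lowest for Car3 in NC and in SZ-A, NC5 and SZ-A5, was also the lowest of its group for Car1, at 0.693 and 0.412 FPKM, and for Car8 and Car14, a likeness looked for after the values were seen.

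Whether the members moved together between mice was described by correlating log2(FPKM + 0.1) as deviations from the group mean over the 18 mice, for 21 pairs, with no test. The members fell apart into sets. Adipoq, Plin1 and Retn went together, with Pearson's r of 0.80 for Adipoq and Plin1, 0.86 for Adipoq and Retn and 0.84 for Plin1 and Retn (Spearman's rho 0.87, 0.82 and 0.92). Within the NC group rho was 0.46, 0.82 and 0.65. In the HFD group Plin1 and Retn had fragments in HFD4 alone, and Retn had none in any SZ-A mouse. Mice of a group at 0 for both genes of a pair share the same deviations, which enter r and rho over the 18 mice. These rest mainly on NC1, NC3 and HFD4, and without NC1 and HFD4 the values of r were 0.64, 0.73 and 0.73. Lep, present in HFD4 alone, had r of 0.40 to 0.66 with these 3 genes, values that rest on that 1 mouse. It was at 0 in every other mouse, so without HFD4 no r can be read for Lep.

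Cfd and Car3 went together more loosely, with r of 0.64 and rho of 0.58, and the r within groups was 0.79 for NC mice, 0.77 for HFD mice and 0.47 for SZ-A mice. Without NC5 and SZ-A2, the mice farthest from the median of Cfd, r was 0.49. Cfd and Fabp4 had r of -0.05 and rho of -0.17, and r was 0.09 with FPKM rescaled to a common sum, so no direction is given. Car3 and Fabp4 tended to go in opposite directions, with r of -0.48 and rho of -0.53. Within NC, HFD and SZ-A mice r was -0.71, -0.50 and -0.56. With rescaled FPKM r was -0.33, and -0.37 within NC mice. Without SZ-A5 and NC5, the mice farthest from the median of Car3, r was -0.39, and -0.28 with rescaled FPKM. By r with Car3, Fabp4 came 9145th of the 10215 other tested genes. Cfd against Adipoq had r of 0.28 over the 18 mice, and 0.33, -0.62 and 0.90 within the NC, HFD and SZ-A groups. Those group values rest on 0 to 15, 0 to 11 and 0 to 5 Adipoq fragments per mouse, so no difference between groups is read from them. The points of 1 mouse share its library and depth.

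**Figure D4:**
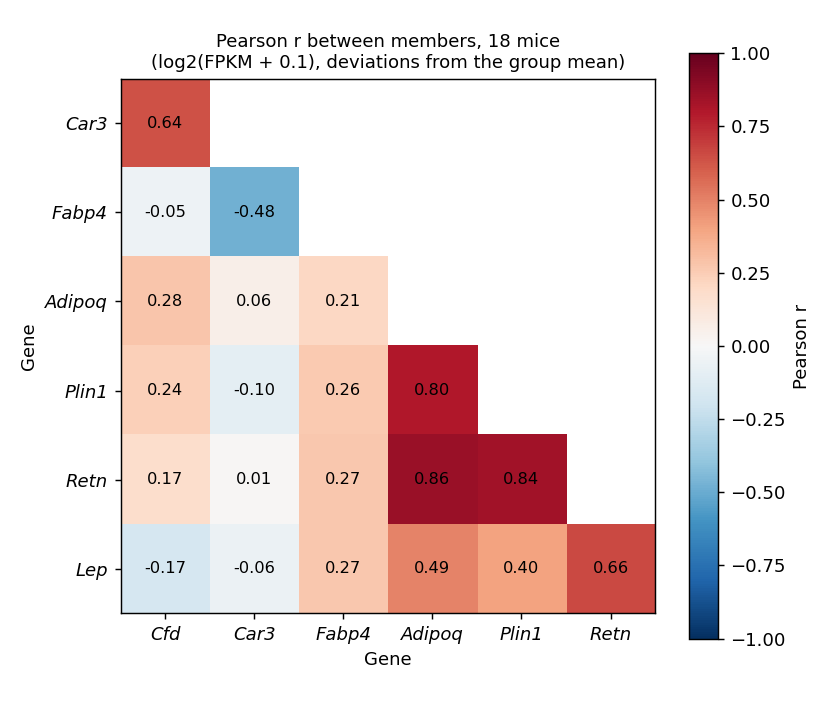
Pearson r of log2(FPKM + 0.1) between the members, as deviations from the group mean over 18 mice. Adipoq, Plin1 and Retn form a block at 0.80 to 0.86, which rests mainly on NC1, NC3 and HFD4. Cfd and Car3 stand at 0.64, and Car3 and Fabp4 at -0.48.

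The genes whose pattern was most like each member were sought among the other 10215 tested genes, by r of the same deviations. Such r were picked for their size, so they carry no test. For Cfd the most alike genes included Colec12, a collectin scavenger receptor (r = 0.87), Sh3bgrl2 (0.84), Lgals1, galectin-1 (0.84), and AC135964.2 (0.83). Without NC5 and SZ-A2, the mice farthest from the median of Cfd, r was 0.78, 0.66, 0.665 and 0.63. Within the HFD group it was 0.68, 0.37, 0.79 and 0.53. Lgals1 was also like Cfd between groups, at 3.01 to 15.8 FPKM in NC mice, 52.0 to 85.8 FPKM in HFD mice and 10.04 to 40.9 FPKM in SZ-A mice, with SZ-A2 the highest SZ-A mouse for both. Lgals1 rose in HFD against NC (log2 2.95, adjusted p = 0.000151) and fell in SZ-A against HFD (log2 -1.84, adjusted p = 0.0298), a call lost without any of the same 7 mice that ended those of Cd36 and Mogat1 (adjusted p up to 0.108). Cidea came 80th for Cfd (r = 0.71) and Car3 258th.

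For Car3 the most alike were Nit2, an omega-amidase (r = 0.95), its paralog Car1 (0.94), Serpina6, corticosteroid-binding globulin (0.93), Cd59a, an inhibitor of the complement membrane attack complex (0.92), and Ces1e, a carboxylesterase (0.92). Without SZ-A5 and NC5, the mice farthest from the median of Car3, r of these genes was 0.80 to 0.94. All 5 had their lowest SZ-A level in SZ-A5, and Serpina6 there was at 15.5 FPKM against 64.1 to 140 in the other SZ-A mice. For Fabp4 the most alike were Ddit4, a stress-induced inhibitor of mTOR signalling (r = 0.84), Ctgf, connective tissue growth factor (0.81), Ccdc80, a secreted matrix protein (0.81), Ucp2, a mitochondrial carrier (0.80), and Sptlc2, a subunit of serine palmitoyltransferase (0.80). Without HFD3 and SZ-A1, the mice farthest from the median of Fabp4, r of these genes was 0.69 to 0.81. Of these, Ccdc80 rose in HFD against NC from 2.05 ± 0.28 to 5.15 ± 2.15 FPKM (adjusted p = 0.00233), and Ddit4 was at 10.5 ± 6.01 and 6.62 ± 3.43 FPKM (adjusted p = 0.272). No gene stood in more than 1 of the 3 sets.

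**Figure D5:**
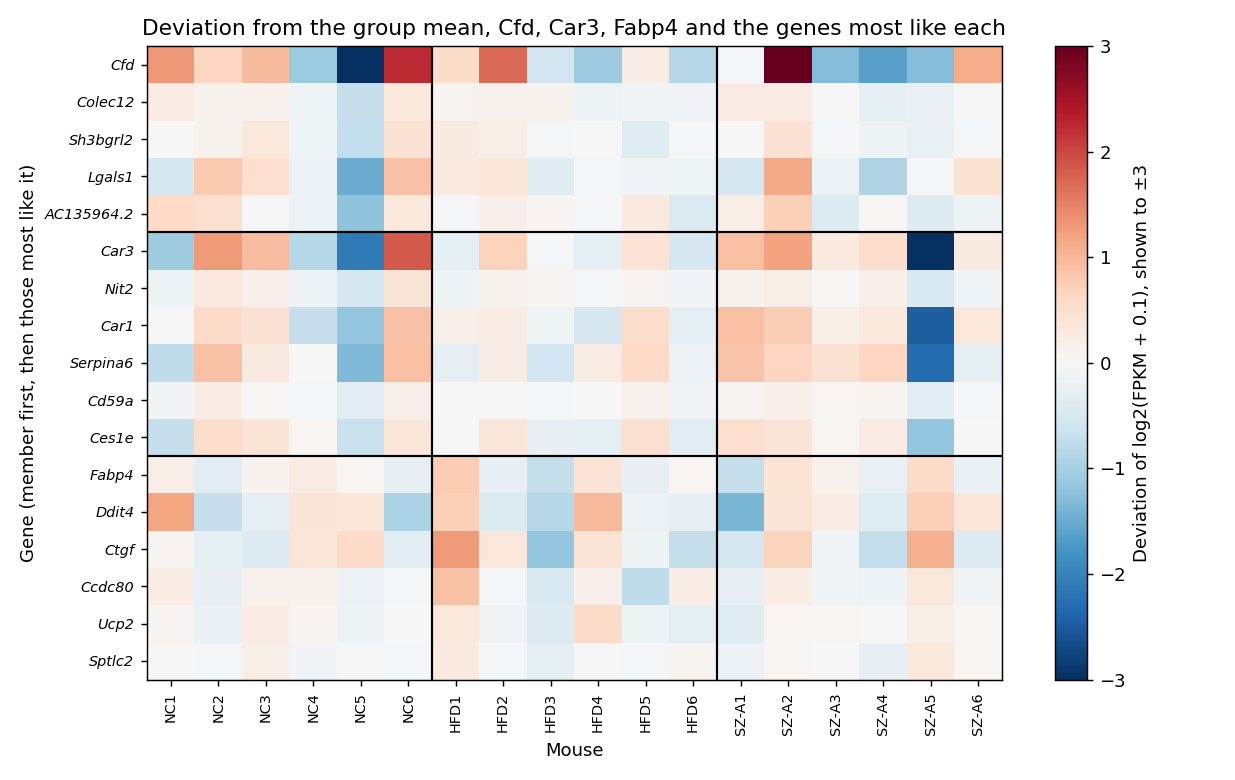
Deviation of log2(FPKM + 0.1) from the group mean in each of the 18 mice, for Cfd, Car3 and Fabp4 and, under each, the genes most like it (4 for Cfd and 5 each for the others). Colours are shown to ±3. NC5 is low for Cfd and Car3 with their sets, SZ-A5 is low for Car3 and its set, and SZ-A2 is high for Cfd.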

How the data were processed

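The authors deposited 1 table of FPKM for 54532 genes in 18 livers. Per the study's methods and the submitters' processing notes, poly-A RNA was sequenced as 150 bp paired-end reads, aligned to GRCm38 with HISAT2 2.0.5 and counted with featureCounts 1.5.0-p3. Groups and replicate numbers came from the sample titles. FPKM times gene length gave whole fragments in 100% of values (tolerance 0.05), and these were used as depth, to give counts of low members, and in a voom alternative.

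Genes with a mean of at least 1 FPKM over the 18 mice (10216) were tested in R 4.3.3 with limma 3.58.1 (lmFit, eBayes with trend) on log2(FPKM + 0.1), each comparison on its own 2 groups of 6. A fold change is on this scale, which understates changes of low genes. P-values were two-sided and adjusted by Benjamini and Hochberg over all tested genes. The code of the fit was run on simulated data with 1 fixed spread for all genes and no differences between libraries. That run does not show how the fit performs on mice that vary as these did. Python 3.11.15 with pandas 2.3.3 and matplotlib 3.10.9 did the rest.

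The members and gene lists were chosen with earlier results of these data known, and lists were described by counts and medians. All 136 list genes were found, 1 of them by a synonym. Named were all members, per list and comparison up to 3 called genes with the largest change (or up to 3 tested genes where none was called), 13 genes whatever their values, and the 5 genes most correlated with each tested member. Some genes that this rule covers are not described, and 1 of the 5 for Cfd is not reported here. Alternatives were pseudocounts of 1 and 0.01, no filter, a minimum of 5 FPKM, 2 other scalings, all mice in 1 fit, sample weights, voom, a replicate block and each mouse left out. Whether replicate numbers pair the mice was checked by correlating the deviations of same-numbered mice.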

Additional observations from a re-analysis of the deposited data

Results flagged for a closer look

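Among 192 groups of 6 mice examined for a mouse far from the other 5, 33 had one. Chance gives about 1 in 20 for normally distributed values, while FPKM was examined here without logs. Some groups also share genes, so the 33 are not set against that rate. Of the members, Cfd was set apart in HFD2 (135.2 FPKM, others 19.4 to 60.9) and in SZ-A2 (30.88 FPKM, others 1.02 to 7.47). HFD4 was apart for Adipoq (0.4006 FPKM), Plin1 (0.07572), Retn (0.1911), Lep (0.2249) and the sum of these genes (0.8923), and NC1 for Plin1 (0.2935). A group in which the other 5 mice are at 0 is counted with any value above 0, which was so for Plin1, Retn and Lep in HFD4 and for Plin1 in SZ-A2 (0.01084 FPKM, 1 fragment). That 1 fragment is within what a count of 0 allows, so SZ-A2 is not shown to be apart for Plin1, and such groups add to the 33.

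SZ-A2 was also apart for Cidea (13.98 FPKM), Cd36 (78.06) and, on the low side, C3 (945.7). SZ-A5 was apart for Fabp5 (8.933), Lum (7.314), Lyz2 (106.2) and Pdk4 (7.316), SZ-A4 for Adipor1 (24.15) and SZ-A6 for Pnpla2 (28.96). NC5 was apart for Pnpla2 (108.2), Thrsp (7.306), Slc2a4 (0.2131), Apoa1 (13420) and, on the low side, Cd68 (2.8). In NC6 it was Fabp5 (5.54), in HFD1 also Fabp5 (2.786), and in HFD5 Thrsp (111.4) and Adipor1 (24.84). The muscle gene Acta1 was apart in HFD3 (24.13) and NC2 (4.032), as was the sum of the muscle markers (37.53 and 9.796). NC1 was apart for the summed white adipocyte markers (2.768) and the summed fibroblast and stellate markers (58.91).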

How the results depend on the processing

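Fitted differences of the members kept their direction under all 195 alternatives run. Cfd ranged from 3.76 to 5.29 (log2, HFD against NC), from -4.21 to -3.14 (SZ-A against HFD) and from 0.30 to 1.65 (SZ-A against NC), Car3 from 2.27 to 3.06, -0.97 to -0.09 and 1.54 to 2.603, and Fabp4 from 0.72 to 1.22, -0.78 to -0.44 and 0.28 to 0.55. Rescaling FPKM to a common sum moved the median log2 difference of all genes from -0.03 to 0.15 for HFD against NC and from 0.03 to -0.15 for SZ-A against HFD, and voom moved the first to 0.12. Relative to that median, the rescaled Cfd values of 4.83 and -3.75 were 4.68 and -3.60.

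The counts of called genes for HFD against NC (3 adipocyte genes, 10 lipid droplet and PPARg target genes) and the 2 adipocyte genes for SZ-A against NC stayed within 1.5 times under every alternative. For SZ-A against HFD the adipocyte count went from 0 to 1 with rescaled FPKM, with voom on whole fragments and with sample weights, and was 0 to 1 with single mice left out. The lipid droplet count of 2 was 0 without the filter on low values, 1 at a minimum of 5 FPKM and 0 to 3 with single mice left out. For SZ-A against NC the lipid droplet count of 5 was 0 without the filter and 1 to 5 with single mice left out. Receptors and partners called for HFD against NC (6) numbered 2 at a minimum of 5 FPKM and 10 with voom, and for SZ-A against NC (4) 2 at that minimum. For SZ-A against HFD they went from 0 to 2 with rescaled FPKM and 1 with sample weights. Paralogs called for HFD against NC (3) numbered 1 without the filter, 6 with rescaled FPKM and 5 with voom, those for SZ-A against HFD went from 0 to 1 with sample weights, and those for SZ-A against NC from 1 to 2 with sample weights or all mice in 1 fit. At 5 FPKM, 1 fibroblast and 1 endothelial marker were called for HFD against NC (3 and 2). Over all genes the 15 called for SZ-A against HFD were 0 without the filter, 26 at 5 FPKM, 35 with all mice in 1 fit and 68 with voom, the 981 for SZ-A against NC were 564 without the filter and 1682 with sample weights, and the 2062 for HFD against NC were 1271 at 5 FPKM. Without a filter more genes are tested, at 5 FPKM fewer are, and with a mouse left out there are fewer samples. The cause of the other changes was not tested.

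With a replicate block the lipid droplet count for SZ-A against HFD was 0, receptors and partners numbered 3 for HFD against NC and 1 for SZ-A against NC, paralogs 2 for SZ-A against NC, and all genes called for SZ-A against HFD 0. The numbers did not pair the mice, since correlations of same-numbered mice ran from -0.117 to 0.292, so the mice share only a number. Low depth limits Adipoq, Plin1, Retn and Lep, whose levels rest on 0 to 24 fragments per mouse. Of 3828 single-gene values under the alternatives, 3604 kept their side of the threshold.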

Other observations

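Of 10 tested macrophage markers 4 were higher in HFD than in NC mice by limma, among them Cd68, from 5.77 ± 1.52 to 14.4 ± 1.82 FPKM (adjusted p = 0.00048), and Cd68 was lower again in SZ-A mice, at 9.20 ± 1.44 FPKM (adjusted p = 0.0451 against HFD, lost without any of 8 mice, HFD1 to HFD4, SZ-A1 and SZ-A4 to SZ-A6, at up to 0.125). Of 7 tested fibroblast and stellate markers 3 were higher in HFD than in NC mice, with Lum, the matrix protein lumican, from 3.06 ± 0.39 to 7.22 ± 1.99 FPKM (adjusted p = 0.000613). Of 7 hepatocyte genes 4 were lower, with Cps1, the first enzyme of the urea cycle, from 1181 ± 288 to 441 ± 69.7 FPKM (adjusted p = 0.000152). Over all tested genes 20.2% were called for HFD against NC, and these lists too were fixed with earlier results known. Elovl3, a fatty acid elongase on the brown adipocyte list that liver also expresses, fell from 169 ± 89.2 to 46.2 ± 20.9 FPKM (adjusted p = 0.00278). Of 8 endothelial markers Lyve1 was higher (adjusted p = 0.0364, lost without any of 9 mice, namely HFD1, HFD2, HFD4, HFD6 and each NC mouse but NC4, at up to 0.0772) and Cav1 lower (adjusted p = 0.0094) in HFD than in NC mice. Cela1, the 1 tested exocrine pancreas marker, was at 4.49 ± 0.78 in NC and 9.76 ± 0.78 FPKM in SZ-A mice (adjusted p = 0.000274), with HFD mice between them at 6.26 ± 1.89 FPKM.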
